A study of Homo sapiens with 6 samples.

Results

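The antisense long noncoding RNAs described here are 172 of the 60676 gene rows of a count table of RNA recovered by pulldown from human embryonic kidney cell lysate. A row was taken if its Ensembl identifier maps to a symbol ending in -AS and a number and if it had a raw count of at least 10 in each of 6 libraries. OIP5-AS1 and EPB41L4A-AS1 were left out by name. Of 1822 rows with such a symbol, 1128 had a count in any library and 174 met the minimum. The minimum was met in all GST-Ferry libraries by 174 rows and in all GST libraries by 368, so the shallower GST-Ferry libraries set the membership. Antisense rows with low counts in GST-Ferry were thus left out. The members were chosen by the same raw counts that are compared below, so the fold changes of the members are a description.

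HEK 293 is an established human line, grown here in suspension and lysed with a microfluidizer. The bait was either glutathione S-transferase alone (GST, 3 libraries) or the Ferry complex carrying that tag (GST-Ferry, 3 libraries). FERRY is an assembly of 5 proteins that binds the active form of the early endosomal GTPase RAB5 and binds RNA. Each bait was held on glutathione resin, incubated with lysate and washed, and strand-specific libraries were built from the retained RNA after removal of ribosomal RNA. All libraries share the line and the lysate preparation, and a library of input lysate was not analysed here. Whether the libraries of a bait stem from separate cultures is not stated in the labels. The p-values therefore reflect only how much these samples varied, and that variation can be technical. The table's column names say control and sample, and reading these as GST and GST-Ferry, number for number, is an assumption from the words.

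A natural antisense transcript is read from the strand opposite a gene, often from a shared promoter region or across the gene's first or last exon. The symbol names the sense partner (DICER1-AS1 lies opposite DICER1), not the RNA's own function. Many such RNAs are spliced, carry a poly(A) tail and stay low and mostly nuclear, while a few, such as FGD5-AS1, are abundant enough to be studied in the cytoplasm.

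The following antisense RNAs show how members meet their partners. They are a low and a high extreme of the fold changes (DICER1-AS1 and AGAP2-AS1), the member with the smallest p (CCDC18-AS1) and the longest one (TTN-AS1). Each line gives 60 bases of a GENCODE 29 transcript on GRCh38, 5′ to 3′. Capitals mark 30 bases that are complementary to an exon of the sense partner.

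CCDC18-AS1: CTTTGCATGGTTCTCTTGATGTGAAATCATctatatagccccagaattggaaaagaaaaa
DICER1-AS1: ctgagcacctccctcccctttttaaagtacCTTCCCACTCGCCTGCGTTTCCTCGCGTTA
AGAP2-AS1: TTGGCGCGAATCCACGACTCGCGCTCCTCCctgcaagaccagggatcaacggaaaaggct
TTN-AS1: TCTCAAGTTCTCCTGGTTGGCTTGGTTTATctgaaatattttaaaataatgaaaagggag

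The CCDC18-AS1 stretch lies at chr1:93264671-93264730 on the minus strand, and the CCDC18 exon reads ATGATTTCACATCAAGAGAACCATGCAAAG opposite its capitals. The DICER1-AS1 stretch lies at chr14:95157901-95157960 on the plus strand, that of AGAP2-AS1 at chr12:57727200-57727259 on the plus strand and that of TTN-AS1 at chr2:178538810-178538869 on the plus strand. The GC content of these windows was 35% for CCDC18-AS1, 55% for DICER1-AS1, 60% for AGAP2-AS1 and 33.3% for TTN-AS1. Neither the counting program nor its strand setting is given in the sources used here. Whether reads of a member and of an overlapping partner were counted apart is therefore not known.

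Library totals ran from 7390346 to 10466520 counts with GST and from 2454538 to 6532665 with GST-Ferry. Levels are given as CPM, counts relative to the library size after scaling by edgeR's TMM factors. The mRNAs of 3 of the 5 bait subunits, PPP1R21, FERRY3 and TBCK, were called higher with GST-Ferry, at 39.4 to 120 CPM across the GST libraries and 617 to 37618 CPM across the others. Those of GATD1 and CRYZL1 were not called (log2 fold changes 0.12 ± 0.23 and -0.50 ± 0.22). All 7 markers of the HEK 293 line were detected, and among 7 markers of other cell types CD3E, HBB and KRT5 were at 0 in every library, while COL1A1 reached 57.4 CPM. The summed level of the HEK 293 markers was 883 to 1106 CPM with GST against 1287 to 1872 CPM with GST-Ferry, and that of the other cell types 19.2 to 47.7 and 51.7 to 57.4 CPM. COL1A1 held most of the sum of the other cell types, at 18.3 to 47.2 and 50.9 to 57.4 CPM, and was not called. VIM held most of the HEK 293 sum, at 590 to 800 and 953 to 1349 CPM. The log2 fold change was -0.19 for CDH2 and above 0 for the other HEK 293 markers, from 0.05 (PAX2) to 1.16 (NEFL). None of the 7 was called. Of the 5 nuclear RNAs listed, RNU2-2 and RN7SK were at 0 in every library, and the list summed to 12116 to 12872 CPM with GST and 8153 to 9864 CPM in the other group. The log2 fold change was -0.61 ± 0.23 for MALAT1, -0.018 ± 0.22 for NEAT1 and 0.09 ± 0.23 for KCNQ1OT1, and none of these was called. The part of these shifts in the results below was not tested.

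No antisense RNA passed the test in either direction. In the edgeR quasi-likelihood fit, with p adjusted by Benjamini-Hochberg over 15546 genes and a threshold of 0.05, 0 of 172 members were called, against 0.624% of all genes (0.592% in the upward direction, 0.0322% in the downward one). Without adjustment, 31 members had p under 0.05 and were lower with GST-Ferry (18.0%, against 8.05% of all genes) and 1 was higher (0.581%, against 11.3%). DESeq2 called 6 members lower (3.49%, against 0.545% of 32648 genes) and 0 higher (against 1.55%). Those 32648 genes include rows of low counts that the filter of the main test left out. These shares and those of the main test are thus over different sets of genes. The log2 fold change was below 0 for 130 of the 172 (75.6%, against 52.2% of all genes). Its median was -0.27 over the members and -0.03 over all genes tested, and it was -0.42 without GST-Ferry 1. Single members ranged from -1.31 to 1.07. Fold changes at or below -1 were seen in 4 members, against 1.99% of all genes, and at or above 1 in 1 member, against 1.69%. Of the 237 other antisense rows tested, 188 were below 0 (79.3%), with a median of -0.40. Apart from OIP5-AS1 and EPB41L4A-AS1, these rows missed the minimum of 10 counts in at least 1 library. The shallower GST-Ferry libraries set that minimum, so rows low in GST-Ferry were sorted into this set. Its lean below 0 is partly given by that choice and is no separate result. Among these rows 24 were at or below -1 and 3 at or above 1, and none was called.

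**Figure D1:**
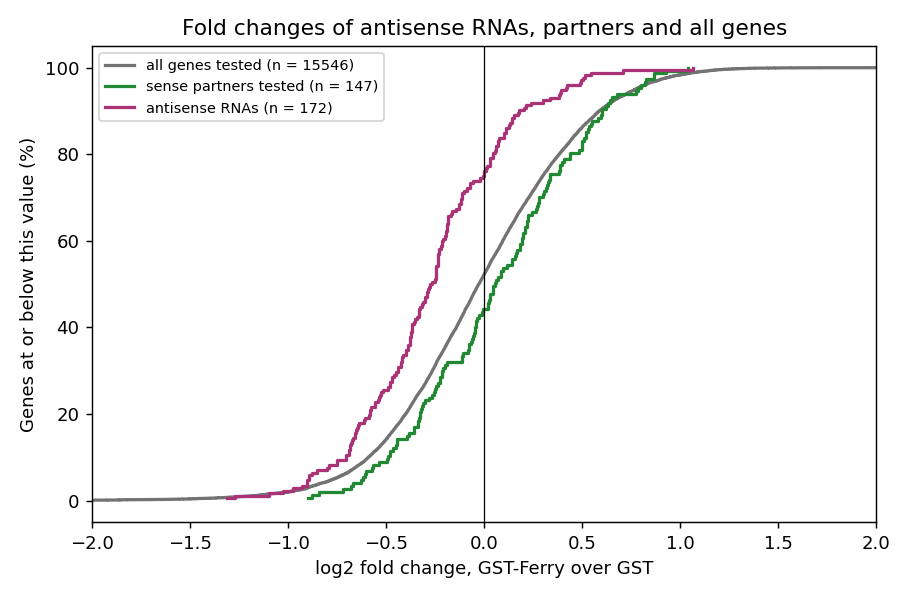
Cumulative share of genes (vertical axis, %) at or below each log2 fold change of GST-Ferry over GST (horizontal axis) for the 172 antisense RNAs, the 147 sense partners that were tested and all 15546 genes tested. The antisense curve lies to the left, with 75.6% of its members below 0 against 52.2% of all genes.

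The TMM-scaled CPM follow the scale of the test. This scale was chosen for printing after CPM of the unscaled library totals had been computed and seen, and counts of non-overlapping groups depend on it. On the TMM-scaled CPM, all 3 GST-Ferry libraries lay below all 3 GST libraries for 34 members (19.8%, against 12.2% of all genes) and above them for 4 (2.33%, against 14.9%). On CPM of library totals the counts were 24 members below (14.0%, against 13.9% of all genes) and 0 above (against 11.9%). The lower groups were separate on both scales for 23 members. ZNF674-AS1, DICER1-AS1 and TTN-AS1 were separate on the scaled CPM only. The 4 members above, TENM3-AS1, PIK3CD-AS2, ZNF710-AS1 and SLFNL1-AS1, were also separate on the scaled CPM only.

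The libraries of each bait were not alike for these RNAs. The members took 0.45%, 0.439% and 0.337% of the counts of GST 1, 2 and 3, and 0.388%, 0.264% and 0.282% of those of GST-Ferry 1, 2 and 3. The group means were 0.408 ± 0.0621% with GST and 0.311 ± 0.0672% with GST-Ferry (SD, n = 3 each), and GST-Ferry 1 lay above GST 3. Relative to each member's GST mean of log2(CPM + 0.5), the member medians were 0.06, 0.12 and -0.27 in GST 1, 2 and 3 and -0.09, -0.40 and -0.34 in GST-Ferry 1, 2 and 3. The same medians over all genes tested lay between -0.03 and 0.02. GST 3 was the lowest GST library for 115 of the 172 members, and GST-Ferry 1 the highest GST-Ferry library for 111. Without GST 3, 23 members were called lower (13.4%, against 3.54% of all genes) and 0 higher (against 4.45%). With GST 3 and GST-Ferry 1 both left out, 45 were called lower (26.2%, against 6.51% of all genes) and 1, AGAP2-AS1, higher (0.581%, against 11.5%). The median member had 156.5, 168 and 77 counts in the GST libraries and 88, 26 and 24 in the GST-Ferry libraries, so single members rest on few counts in GST-Ferry 2 and 3. There 3 counts, the limit that a count of 0 allows, equal 1.19 and 1.3 CPM, which covers counting error only.

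**Figure D2:**
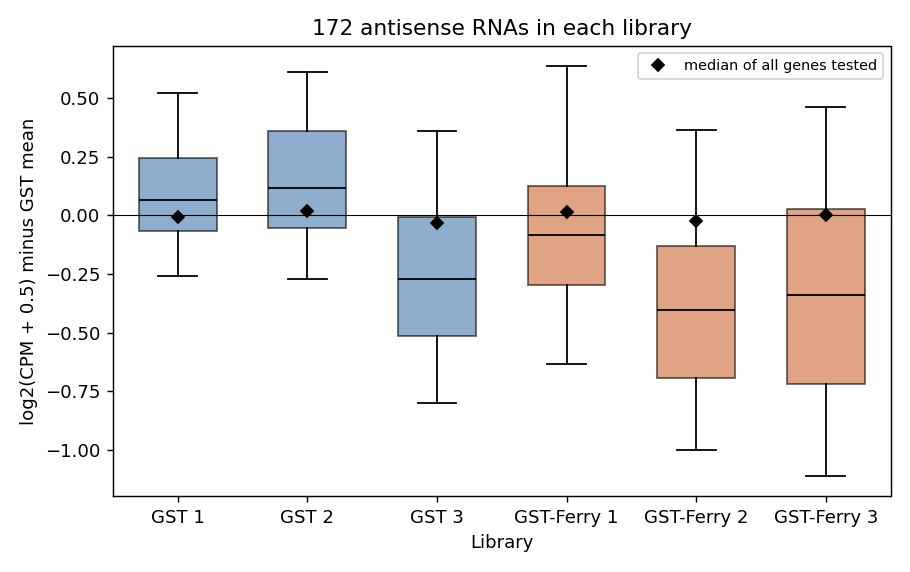
Boxes of log2(CPM + 0.5) minus the GST mean (vertical axis) of the 172 antisense RNAs in each of the 6 libraries (horizontal axis), with the line at the median, box edges at the quartiles and whiskers at the 5th and 95th percentiles. Diamonds mark the median of all genes tested; the member medians of GST 3, GST-Ferry 2 and GST-Ferry 3 lie at -0.27, -0.40 and -0.34.

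The member with the smallest p was CCDC18-AS1, a 20-exon RNA (ENSG00000223745, chr1:93262186-93346025, minus strand) whose exons overlap those of CCDC18, a gene for a coiled-coil protein. It had 76.3, 112 and 81.8 CPM in GST 1, 2 and 3 and 50.8, 43.0 and 51.8 CPM in GST-Ferry 1, 2 and 3. All GST-Ferry libraries lay below all GST libraries, on both scales. The log2 fold change was -0.89 ± 0.21 (SE) (adjusted p 0.0675, edgeR quasi-likelihood, Benjamini-Hochberg). CCDC18 itself had 80.9 ± 23.1 and 61.8 ± 7.93 CPM (SD, n = 3 each).

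THUMPD3-AS1 (ENSG00000206573, chr3:9349689-9398579, minus strand), opposite a gene for a tRNA-modifying enzyme, had 99.7, 94.3 and 117 CPM in the GST libraries and 71.8, 43.4 and 50.0 CPM in the GST-Ferry libraries. The groups did not overlap on either scale. Its log2 fold change was -0.90 ± 0.22 with an adjusted p of 0.0775 (edgeR quasi-likelihood, Benjamini-Hochberg), while THUMPD3 had 87.6 ± 18.0 and 92.0 ± 9.02 CPM.

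With all libraries, the lowest fold change belonged to ZNF674-AS1 (ENSG00000230844, chrX:46545493-46548408, plus strand), which lies beside the zinc finger gene ZNF674. It had 19, 36.5 and 11.8 CPM with GST against 10.8, 10.3 and 5.22 CPM with GST-Ferry. GST 2 stood high, and the gap between GST 3 and GST-Ferry 1 was small and closed on CPM of library totals. Its log2 fold change was -1.31 ± 0.40 (adjusted p 0.118, edgeR quasi-likelihood, Benjamini-Hochberg), and ZNF674 had 10.6 ± 0.978 and 10.3 ± 2.60 CPM. Without GST 2 the log2 fold change of ZNF674-AS1 was -0.79, and those of NR2F2-AS1 (-1.01), THUMPD3-AS1 (-0.98) and DICER1-AS1 (-0.97) were among those below it.

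DICER1-AS1 (ENSG00000235706, chr14:95157645-95179933, plus strand), opposite the gene for the nuclease that makes microRNAs, had 19.8, 25.4 and 9.43 CPM with GST against 8.34, 7.16 and 6.96 CPM with GST-Ferry. GST 3 lay close to the GST-Ferry libraries, and the groups overlapped on CPM of library totals. The log2 fold change was -1.27 ± 0.35, with an adjusted p of 0.096 (edgeR quasi-likelihood, Benjamini-Hochberg). DICER1 had 293 ± 57.5 and 278 ± 30.8 CPM.

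NR2F2-AS1 (chr15:96110040-96327361, minus strand), which overlaps the span but not the exons of the gene for the nuclear receptor COUP-TFII, had 12.1, 14.2 and 11 CPM with GST against 6.14, 5.97 and 5.22 CPM with GST-Ferry, with no overlap on either scale. Its log2 fold change was -1.10 ± 0.28 and the adjusted p 0.0792 (edgeR quasi-likelihood, Benjamini-Hochberg). NR2F2-AS1, CCDC18-AS1, THUMPD3-AS1 and DICER1-AS1 were among the 5 of 172 members with an adjusted p under 0.1 (edgeR quasi-likelihood, Benjamini-Hochberg). That share is below the 3.62% of all genes in either direction. All 5 members were lower with GST-Ferry, and the 3.62% is not split by direction here. In the main test 0.592% of all genes were called higher and 0.0322% lower.

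Further members at the low end were NFYC-AS1 (-1.03 ± 0.32), SPEN-AS1 (-0.93 ± 0.36), BBOX1-AS1 (-0.91 ± 0.28) and PNISR-AS1 (-0.90 ± 0.32), all log2 fold changes ± SE. SPEN-AS1 and PNISR-AS1 overlapped between the baits. Without GST 2 the values were -0.66 for NFYC-AS1 and -0.47 for SPEN-AS1, and without GST 3 and GST-Ferry 1 together -1.43 for PNISR-AS1. NFYC encodes a subunit of the CCAAT-binding factor NF-Y, SPEN a repressor needed for X inactivation and PNISR a nuclear speckle protein. The mRNA of PNISR had 410 ± 32.5 CPM with GST against 229 ± 9.66 CPM with GST-Ferry, while BBOX1 was at 0 in every library.

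At the other end stood AGAP2-AS1 (ENSG00000255737, chr12:57726271-57728356, plus strand), opposite the gene for a GTPase-activating protein of ARF. It had 3.30, 6.01 and 3.54 CPM with GST against 5.85, 11.9 and 10.4 CPM with GST-Ferry. GST-Ferry 1 lay just below GST 2, so the groups overlapped. The log2 fold change was 1.07 ± 0.38 with an unadjusted p of 0.0144 and an adjusted p of 0.162 (edgeR quasi-likelihood, Benjamini-Hochberg). AGAP2 had 5.64 ± 1.72 and 8.20 ± 1.46 CPM.

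The next were TBX2-AS1 (0.71 ± 0.38), FOXD2-AS1 (0.55 ± 0.31), PIK3CD-AS2 (0.51 ± 0.36) and ZNF710-AS1 (0.50 ± 0.31). SIGLEC10-AS1 and ZNF503-AS2 each had 0.49 and SLC9A3-AS1 had 0.43 ± 0.33. None of these had an unadjusted p under 0.05, and their values varied with the libraries used. TBX2-AS1 ranged from 0.43 without GST 3 to 1.22 without GST 1 and had 0.29 with GC offsets. FOXD2-AS1 had 0.33 without GST 3, 0.25 without GST-Ferry 1 and 0.025 without both. PIK3CD-AS2 had 0.28 without GST 3 and 0.30 without GST-Ferry 2, ZNF503-AS2 had 0.22 without GST 3, and SIGLEC10-AS1 ranged from 0.24 without GST 3 to 0.76 without GST 1. For ZNF710-AS1 leaving out GST 3 and GST-Ferry 1 together gave 0.27. With GC offsets AGAP2-AS1 had 0.70, ZNF503-AS2 0.24 and SIGLEC10-AS1 0.18. Lower members also moved with these offsets. CCDC18-AS1 went from -0.89 to -0.70, THUMPD3-AS1 from -0.90 to -0.73, GABPB1-AS1 from -0.58 to -0.39 and FGD5-AS1 from -0.22 to -0.018. SPEN-AS1 went the other way, from -0.93 to -1.18, as did BBOX1-AS1 (-0.91 to -0.97) and TMEM147-AS1 (-0.24 to -0.40). SLC9A3-AS1 spread widely within each bait, with 111, 69.9 and 43.2 CPM with GST against 138, 64.4 and 97.0 CPM with GST-Ferry. Its log2 fold change was 0.81 without GST 1, 0.13 without GST 3 and 0.12 without GST-Ferry 1.

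**Figure D3:**
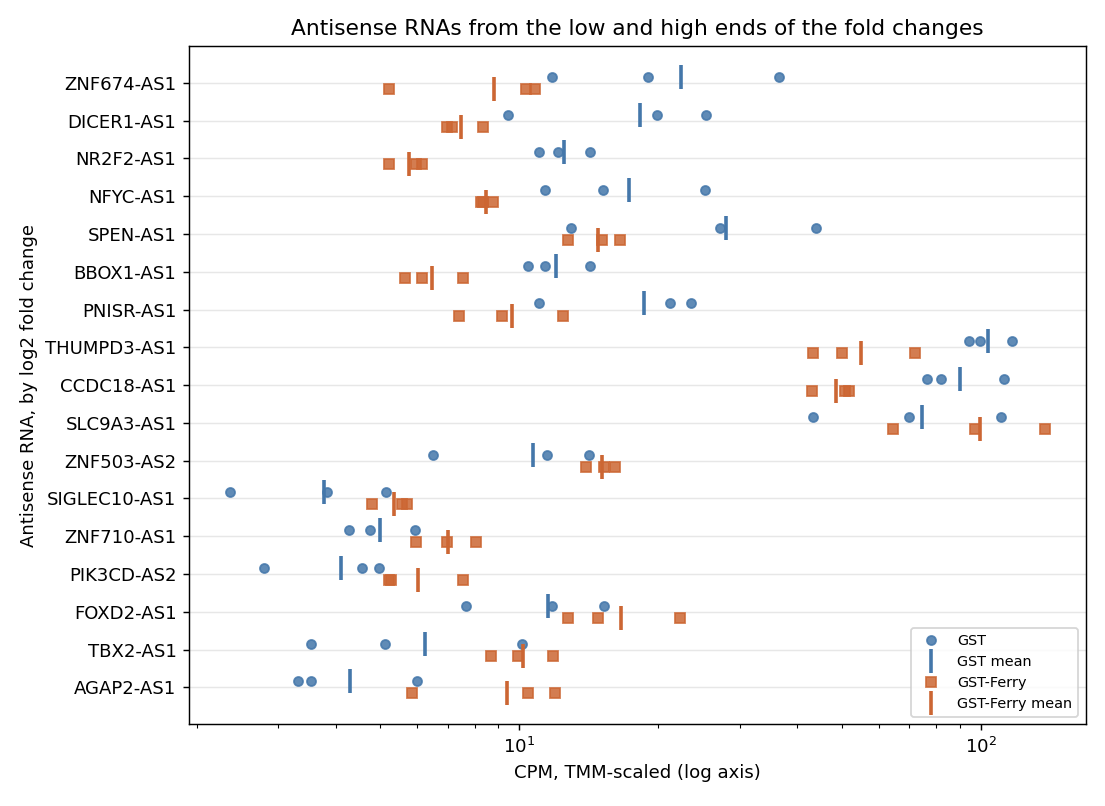
CPM on TMM-scaled library sizes (horizontal log axis) of antisense RNAs from the low and the high end of the log2 fold changes (vertical axis), with circles for the 3 GST and squares for the 3 GST-Ferry libraries and a bar at each mean. CCDC18-AS1 and THUMPD3-AS1 are separated between the baits, and AGAP2-AS1 overlaps.

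The most abundant members included RNAs with and without separate groups. FGD5-AS1, the highest by mean CPM, had 122, 115 and 180 CPM with GST against 137, 111 and 109 CPM with GST-Ferry, and its groups overlapped. Its log2 fold change of -0.22 ± 0.22 was -0.36 without GST 2, -0.012 without GST 3 and -0.33 without GST-Ferry 1. TP73-AS1 had 109, 114 and 81.3 against 114, 84.7 and 112 CPM, a log2 fold change of 0.03 ± 0.21 whose sign turns with the scaling (-0.05 on library sizes alone). SLC16A1-AS1, opposite the lactate transporter gene MCT1, had 130, 138 and 131 against 109, 78.0 and 65.7 CPM and did not overlap.

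THAP9-AS1, opposite a gene derived from a transposase, had 111 ± 32.0 and 68.0 ± 3.26 CPM and did not overlap. TTN-AS1, whose 68 exons run against the gene of the muscle protein titin, had 104 ± 8.45 and 74.5 ± 18.0 CPM. GABPB1-AS1 had 89.4 ± 7.91 and 58.7 ± 25.4 CPM, TMEM147-AS1 85 ± 26.4 and 71.3 ± 19.5, and ENTPD1-AS1 75.6 ± 3.38 and 66.1 ± 8.17, each overlapping. The log2 fold change of GABPB1-AS1 went from -0.58 to -1.01 without GST-Ferry 1, and that of TMEM147-AS1 from -0.24 to -0.49 without GST 3, -0.48 without GST-Ferry 1, -0.12 without GST-Ferry 2 and -0.066 without GST 1. Per kilobase of exon, the highest level over all libraries was that of VPS9D1-AS1 with 36.9 CPM per kb, followed by FGD5-AS1 with 25.2 and RAB4A-AS1 with 23.8.

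The sense partners of the 172 members are 171 genes, since PTOV1-AS1 and PTOV1-AS2 share PTOV1. Of these, 147 were tested. Their median log2 fold change was 0.05 and 65 were below 0. Of these 1, ATP6V0E2, a subunit gene of the proton pump of lysosomes, was called higher (1.04 ± 0.20, adjusted p 0.045, edgeR quasi-likelihood, Benjamini-Hochberg), which is 0.68% of the partners against 0.592% of all genes. No partner was called higher with RLE factors, library sizes alone or limma-voom, nor without GST 1, GST 2, GST-Ferry 2 or GST-Ferry 3. Without GST 1, 1 partner was called lower (0.68%, against 0.122% of all genes). ATP6V0E2 had 42.3 ± 4.70 and 87.3 ± 11.5 CPM, while ATP6V0E2-AS1 had 10.2 ± 1.76 and 10.6 ± 1.69. In 148 pairs with both tested, the member's log2 fold change was below its partner's in 118, with a median difference of -0.35. Both were below 0 in 56 pairs, the member alone in 57, neither in 26 and the partner alone in 9. Across these 148 pairs the fold changes had a Spearman rho of 0.41, as a description. Pairs share their libraries and resemble each other in base composition (rho of GC content within pairs 0.61). With offsets for GC content the rho was 0.11. Without such offsets it was 0.49 for 23 pairs whose member has no exon bases opposite other exons. With overlap it was 0.33 under 25% of the member's exon bases (89 pairs) and 0.44 at 25% or more (36 pairs). Whether overlapping pairs share counted reads is not known, and the cause of the relation was not tested.

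**Figure D4:**
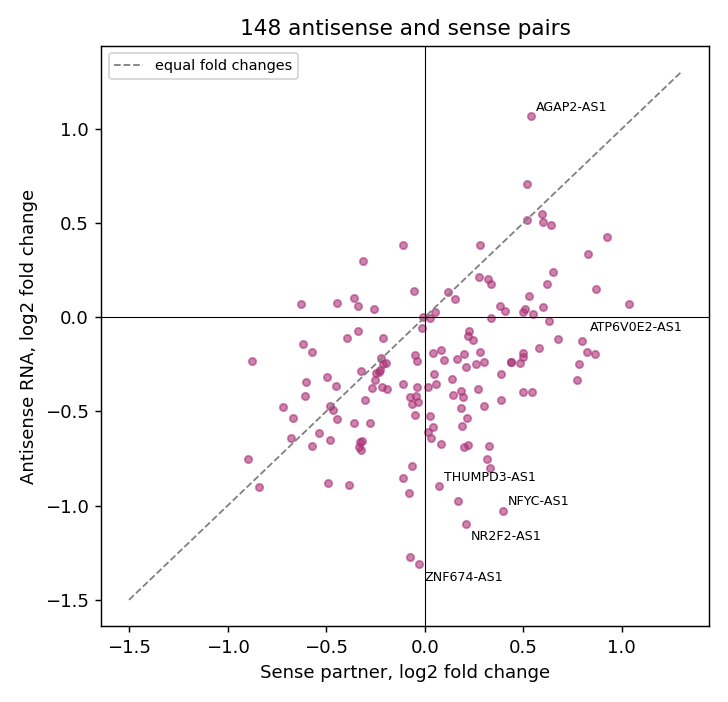
Log2 fold change of each antisense RNA (vertical axis) against that of its sense partner (horizontal axis) for 148 pairs, with the dashed line at equal fold changes. The member lies below the line in 118 pairs; AGAP2-AS1 lies above it.

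The members differ in how they overlap other genes. In GENCODE 29, 138 share exonic sequence with the partner, 19 overlap its span with exons apart and 15 lie beside it. Where under 25% of a member's exon bases lay opposite exons of other genes, 92 of 104 members were below 0 (median -0.34). With 25% or more, 22 of 43 were (median -0.00), and with none, 16 of 25 (median -0.24). These counts depended on the setting. With GC offsets they were 86 of 104 (median -0.32), 31 of 43 (-0.21) and 18 of 25 (-0.18), and without GST 3 they were 95 (-0.42), 36 (-0.23) and 17 (-0.20). Of the 61 members that start within 1 kb of the partner's start, 53 were below 0, and of the other 111, 77 were. The 43 with large overlap had a median GC content of 55.0%, against 49.7% over all members.

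Fold change and GC content moved together among the members, as they did over all genes. The Spearman rho was 0.45 over the 172 members and 0.53 over 15437 genes with a value, both descriptions in the same 6 libraries. In the tertile of members with the lowest GC content (34.0% to 45.8%), 54 of 57 were below 0 with a median of -0.44, and NR2F2-AS1, CCDC18-AS1 and THUMPD3-AS1 are among them. In the middle tertile 45 of 57 were below 0 (median -0.29). In the highest tertile (53.4% to 69.0%), which holds AGAP2-AS1 and TBX2-AS1, 31 of 58 were (median -0.07). With GC offsets, an alternative added after the data were seen, the 3 medians were -0.22, -0.30 and -0.30, and the median of all members was -0.29 against 0.02 over all genes.

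**Figure D5:**
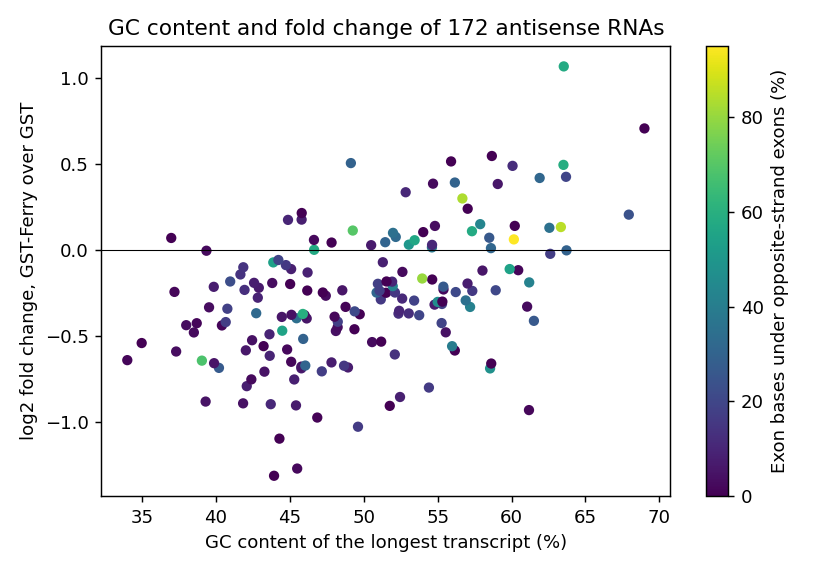
Log2 fold change of GST-Ferry over GST (vertical axis) against the GC content of the longest transcript (horizontal axis, %) for the 172 antisense RNAs, coloured by the share of exon bases under exons of the opposite strand. Members of low GC content lie mostly below 0, 54 of 57 in the lowest tertile.

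Groups by the partner's role, chosen after the values were seen, gave these values. Partners that are developmental transcription factors accounted for 14 members, 8 of them below 0 (median -0.26). NR2F1-AS1 had 44.2 ± 10.4 CPM with GST against 29 ± 7.43 with GST-Ferry, GATA6-AS1 14.4 ± 5.10 and 9.01 ± 1.02, and GATA2-AS1 20.2 ± 5.84 and 23.5 ± 6.89. Of the 12 partners tested, 10 were above 0 and 2 below (median 0.20), against 52.2% of all genes below 0. With GC offsets 4 of these partners were below 0 (median 0.14), and the median of the 14 members was -0.13. The median GC content of these partners was 55.3%, against 48.0% over all genes. Partners in membrane traffic accounted for 11 members, 8 below 0 (median -0.25). LAMTOR5-AS1, opposite a lysosomal Ragulator subunit gene, had 53.7 ± 4.04 and 33.1 ± 7.75 CPM with no overlap. RAB4A-AS1, opposite an early endosomal GTPase gene, had 30 ± 2.76 and 25 ± 2.89 CPM and overlapped.

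Partners for mitochondrial proteins accounted for 6 members, 5 below 0 (median -0.41), among them WARS2-AS1 with 59.8 ± 9.88 and 42.8 ± 20.1 CPM and NNT-AS1 with 48.4 ± 20.0 and 35.3 ± 6.01 CPM. Both overlapped. Members whose partner, by symbol, is a ZNF gene numbered 10, with 7 below 0 (median -0.28).

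TIAM1-AS1, EML2-AS1 and CD27-AS1 lay just inside the minimum of 10 counts, and TROAP-AS1, VIM-AS1 and ZNF529-AS1 just outside it. Lowest counts were 10 in the first 3 and 9 in the others, and 10 members had exactly 10. TIAM1-AS1 had 3.81 ± 1.34 CPM with GST against 4.29 ± 0.435 with GST-Ferry, and VIM-AS1 8.15 ± 1.25 and 5.93 ± 1.99. The RNAs left out by name had 171 ± 105 and 108 ± 19.2 CPM (OIP5-AS1) and 34.2 ± 7.39 and 22.6 ± 3.54 CPM (EPB41L4A-AS1), and neither passed the test.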

How the data were processed

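The authors deposited 1 table of raw read counts per Ensembl gene for 6 libraries, and the submitters' processing notes name bcl2fastq 2.19.1, STAR 2.5.2b and GRCh38.p13; the counting program, annotation and strand setting are not given in the sources used here. Symbols came from a table of gene names (60357 of 60676 rows matched), and positions and transcripts from GENCODE 29 (GRCh38). Low rows were removed with filterByExpr (minimum count 10, minimum total 15). The 6 libraries were scaled by TMM and tested with edgeR 4.0.16 (quasi-likelihood, two-sided, R 4.3.3) over 15546 genes. The test was tried on simulated data. Printed CPM use the TMM-scaled sizes; CPM of library totals were computed first, the scale was changed after their values had been seen, and both counts of separate groups are printed. The 8 lowest and 8 highest fold changes, the 10 highest mean CPM and the 8 smallest p named members; others named were chosen after their values were seen. A member taken by this rule is not reported here. Members and lists were chosen with earlier results of these data known. Alternatives used limma 3.58.1, DESeq2 1.42.0, other scalings and filters, and fewer libraries.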

Additional observations from a re-analysis of the deposited data

How the results depend on the processing

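The members' median log2 fold change stayed below 0 under every alternative run; leaving out GST 3 and GST-Ferry 1 together moved it from -0.27 to -0.49, and leaving out GST-Ferry 1 alone to -0.42. Calls depended on the setting. Members called lower numbered 0 in the main test and 9 without a filter (5.23%, against 0.989% of all genes). There were 6 with DESeq2 (3.49%, against 0.545%) and 33 with library weights (19.2%, against 5.96%). Without GST 3 and GST-Ferry 1 there were 45 (26.2%, against 6.51%). With 1 library left out there were 0 to 23, 23 being without GST 3 (13.4%, against 3.54%). Without a filter and with DESeq2, here and for the partners below, all genes means 32648, including rows of low counts. AGAP2-AS1 was the 1 member called higher, with library weights (against 10.4% of all genes called higher) and without both libraries (against 11.5%). With the replicate block, 1 member (ZNF674-AS1) was called lower (0.581%, against 0.18% of all genes). Same-numbered libraries share only a number, with correlations of deviations of 0.244, 0.0796 and -0.148. On CPM of library totals, a comparison added after the data were seen, 0 members lay above in place of 4. Members below 0 were 199 of 260 with a minimum of 5 counts, 71 of 101 with 20, and 16 of 25 without opposite exon overlap.

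Sense partners called higher were 1 in the main test, 0 with RLE factors, library sizes alone, limma-voom and a threshold of 0.01, 2 with GC offsets (1.36%, against 0.856% of all genes), 3 without a filter and with DESeq2 (1.81%, against 1.29% and 1.55%), 14 with library weights (9.52%, against 10.4%), 16 without both libraries (10.9%, against 11.5%) and 0 to 4 with 1 library left out. Those called lower were 3 without a filter (1.81%, against 0.989%), 2 with DESeq2 (1.2%, against 0.545%), 6 with weights (4.08%, against 5.96%), 1 on thinned counts (0.719%, against 0.226%), 9 without both libraries (6.12%, against 6.51%) and 0 to 5 with 1 left out. SLC9A3-AS1 turned to -0.17 without both libraries. TP73-AS1 turned to -0.045 on library sizes alone, -0.025 without a filter, -0.085 with weights, -0.032 on thinned counts, -0.19 without both libraries, -0.11 with GC offsets, and ran from -0.13 (without GST 3) to 0.12 (without GST-Ferry 2) with 1 library left out. The cause of these shifts was not tested. With counts thinned to equal depth, 0 of 171 members tested were called. Of the 12857 genes tested on thinned counts, 1.05% were called higher and 0.226% lower.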
